A study of Mus musculus with 12 samples.

Results

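The genes described here are 9 complement components and regulators, C1qa, C1qb, C1qc, C3, C3ar1, Cfp, Cfb, Cd55 and Cd59a, of 29737 genes counted in mouse bone marrow neutrophils. The genes were chosen by name and by a measured value, the lower counts of C1qa and C3ar1 in cells given tauro-β-muricholic acid (Tβ-MCA), so the comparison of Tβ-MCA with PBS is given for these genes as a description with no test. All 9 were in the count table and all 9 passed the filter on low counts, which kept 16761 genes. Polyadenylated RNA was sequenced from neutrophils of wild-type mice after 24 h in culture with PBS or with a conjugated bile acid, in 12 samples, 3 per group. TCA (taurocholic acid) and GCA (glycocholic acid) were used at 200 μM. The labels give 10 μM for Tβ-MCA, while the methods of the study name the same 200 μM as for the other acids, so the dose of Tβ-MCA is uncertain. TCA and GCA are cholic acid joined to taurine and to glycine, and Tβ-MCA is a muricholic acid joined to taurine. Mice bought for the study were female C57BL/6 animals aged 4 to 6 weeks. The labels describe Ly6G+ cells taken with magnetic beads and the methods a neutrophil enrichment kit, and neither source says whether animals were pooled. Replicates keep the numbers of their labels (PBS 3, 5 and 6, and 3, 4 and 5 in each other group). Nothing states that these came from separate mice, so each p-value measures the spread between these samples.

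Complement is a set of plasma and cell-bound proteins that marks particles for uptake by phagocytes and releases small peptides that attract them. C1q starts the classical pathway by binding antibody on a target, whereas the alternative pathway builds its own enzyme from C3b and factor B, held together by properdin. Both pathways cut C3, the fragment C3a signals through the receptor C3aR, and membrane proteins such as CD55 and CD59 keep host cells from being attacked. Neutrophils store and release several of these proteins, and C1q in tissue is mainly a product of macrophages and related cells.

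The promoters of the C1q genes, of C3 and of its receptor gene C3ar1 are shown because the results turn on these genes. The RefSeq table (GRCm38.p6) held a promoter, 250 bases before to 50 bases after the start, for 7 of the 9 genes. C1qa and Cfb were not among them. Capitals mark matches, on either strand, to GAGGAA (an ETS core), TGANTCA (AP-1) or TTGCNNAA (C/EBP).
C1qb (chr4:136886151-136886450, minus strand): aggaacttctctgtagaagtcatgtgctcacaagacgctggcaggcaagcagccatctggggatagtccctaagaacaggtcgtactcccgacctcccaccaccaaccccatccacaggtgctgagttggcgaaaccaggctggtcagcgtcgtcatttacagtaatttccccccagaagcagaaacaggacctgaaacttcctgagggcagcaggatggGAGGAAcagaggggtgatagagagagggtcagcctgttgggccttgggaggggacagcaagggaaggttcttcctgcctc
C1qc (chr4:136892865-136893164, minus strand): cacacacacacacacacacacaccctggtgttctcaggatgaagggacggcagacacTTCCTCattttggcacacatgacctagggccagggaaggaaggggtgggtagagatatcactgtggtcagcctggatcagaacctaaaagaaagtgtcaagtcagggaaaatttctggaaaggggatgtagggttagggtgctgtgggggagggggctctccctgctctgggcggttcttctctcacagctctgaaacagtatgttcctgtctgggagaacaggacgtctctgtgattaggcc
C3 (chr17:57228087-57228386, minus strand): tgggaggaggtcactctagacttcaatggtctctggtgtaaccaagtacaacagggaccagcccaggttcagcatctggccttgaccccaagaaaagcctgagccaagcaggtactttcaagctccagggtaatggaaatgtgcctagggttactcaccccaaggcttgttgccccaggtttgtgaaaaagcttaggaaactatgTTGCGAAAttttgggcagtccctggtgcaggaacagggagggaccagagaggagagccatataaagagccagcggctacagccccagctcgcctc
C3ar1 (chr6:122856108-122856407, minus strand): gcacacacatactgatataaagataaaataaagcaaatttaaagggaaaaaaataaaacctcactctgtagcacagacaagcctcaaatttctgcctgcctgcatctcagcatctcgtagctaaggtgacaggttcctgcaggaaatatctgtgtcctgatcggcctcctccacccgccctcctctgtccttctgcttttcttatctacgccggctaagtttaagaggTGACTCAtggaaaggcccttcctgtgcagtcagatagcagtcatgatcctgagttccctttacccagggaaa

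C1qb held GAGGAA with its first base at -30 from the start, and C1qc held the same letters on the other strand with their first base at -193. C3 held TTGCGAAA at -45, and C3ar1 held TGACTCA at -22. Cfp and Cd59a also held GAGGAA, and Cd59a held an IRF pattern. These letters are common: of 32851 promoters of this length, 28.3% held GAGGAA, 10.8% held TTGCNNAA, 7.8% held TGANTCA and 3.4% held the IRF pattern. The searched patterns do not overlap one another in these windows. The 3 C1q genes lay side by side on the minus strand within chr4:136880129-136898803 (GRCm38), a stretch of 18675 bases.

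Per length, C3, the central component, was far above the other members. In PBS the level of C3 was 380 ± 72.0 RPKM (reads scaled by gene length and library total, mean ± SD, n = 3), and only 0.387% of the 29737 genes ranked as high or higher. Cfp, encoding properdin, followed at 14.8 ± 1.40 RPKM. Cfb (factor B) was at 8.0 ± 0.60 and Cd55 at 6.95 ± 1.49 RPKM, and the samples of these neighbours overlapped. C3ar1 (2.74 ± 0.78 RPKM) and C1qb (2.73 ± 1.07) could not be ordered, and the samples of C1qb also overlapped those of C1qa (1.67 ± 0.68). C1qa in turn overlapped C1qc (1.11 ± 0.36 RPKM). Cd59a, encoding a blocker of the terminal pore, was lowest at 0.340 ± 0.057 RPKM, below each PBS sample of the other 8 genes.

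**Figure D1:**
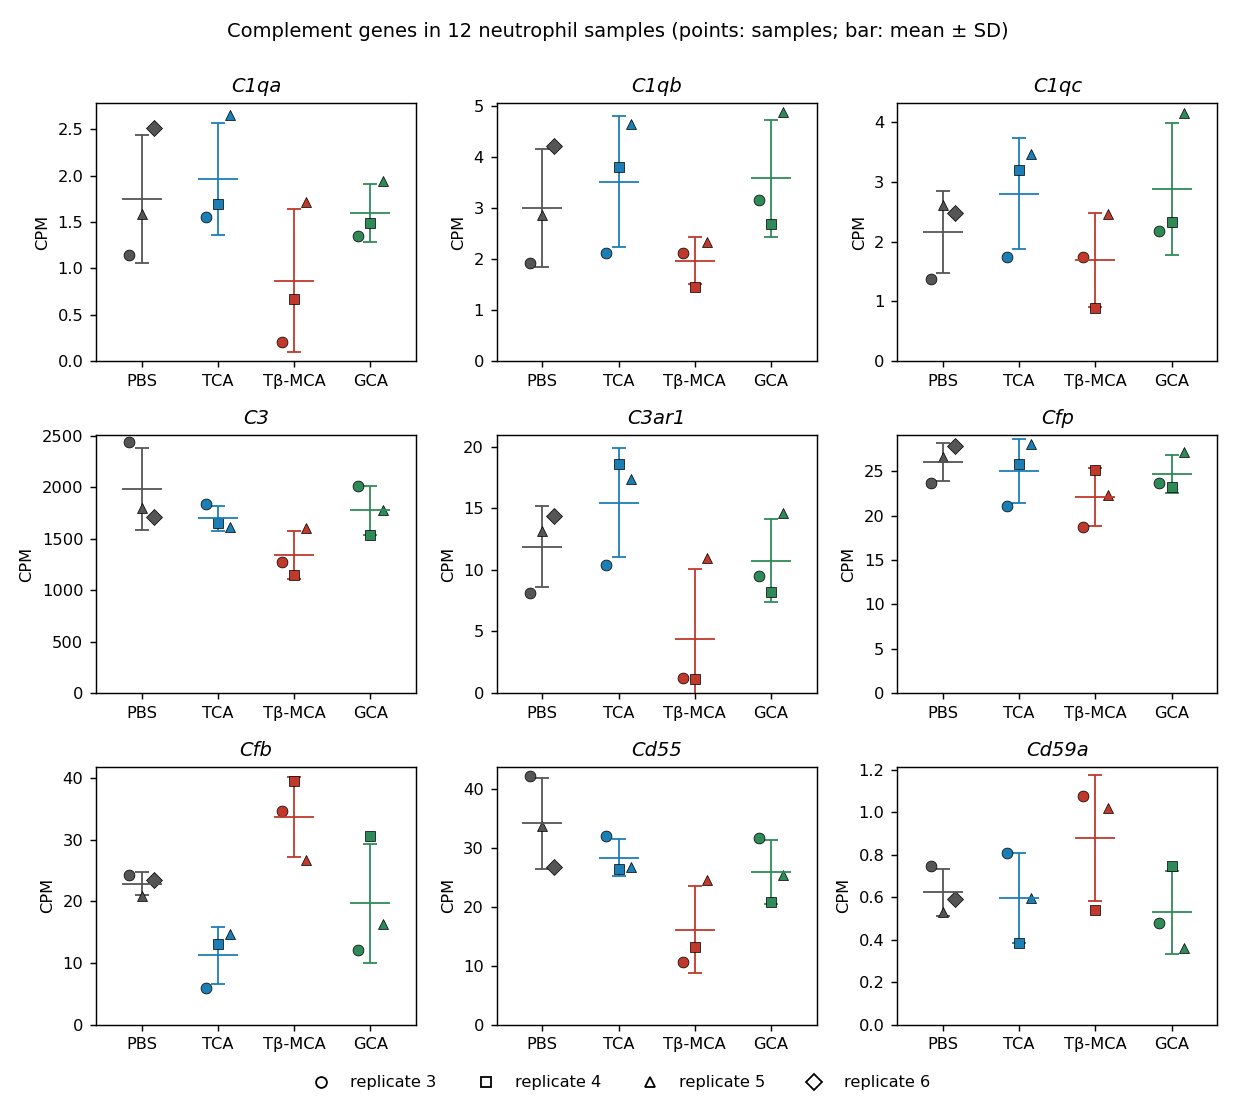
Level of each of the 9 genes as TMM-scaled CPM (counts scaled to a common library size, vertical axes from 0) in the 12 samples by group. Points are samples and bars the mean ± SD of 3, cut at 0 where the SD passes it. The Tβ-MCA samples of C3ar1 lie at 1.20, 1.13 and 10.9, the last among the PBS samples.

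The libraries held 32757389 to 41375925 counts, and 3 counts corresponded to 0.0725 to 0.0931 CPM. The summed level of 11 neutrophil markers was 47931 to 59357 CPM in PBS and 38391 to 43722 CPM in Tβ-MCA, without overlap. S100a9 was its largest part, at 25502, 22051 and 21325 CPM in PBS and 18484, 17455 and 20149 CPM in Tβ-MCA. Ngp, the next largest, overlapped, at 18901, 14755 and 14422 CPM in PBS and 14680, 12184 and 13039 CPM in Tβ-MCA. Of the 11 markers, 9 were lower without overlap, against 27% of all tested genes apart in either direction. Ly6g, the sorting marker named in the labels, was at 17.8 to 21.4 CPM in PBS and at 7.54, 8.32 and 12.9 CPM in Tβ-MCA. Csf3r, of the same list, overlapped, at 851, 1095 and 1036 CPM in PBS and at 949, 1106 and 1035 CPM in Tβ-MCA. The summed level of 10 monocyte markers was 2713 to 3287 CPM in PBS but 354, 426 and 2070 CPM in Tβ-MCA replicates 3, 4 and 5. Fn1 was the largest part of the PBS sum, at 2190, 1646 and 1621 CPM, and was at 50.3, 54.4 and 1233 CPM in Tβ-MCA. The 12 macrophage markers summed to 1585 to 2360 CPM in PBS and to 949, 1358 and 2051 CPM in these Tβ-MCA replicates. Apoe alone was at 670, 1009 and 1620 CPM in the latter. Replicate 5 was the highest Tβ-MCA sample in both lists, but stood clearly apart from replicates 3 and 4 only in the monocyte list. In edgeR at an adjusted p of 0.05, 4 of 11 neutrophil, 1 of 10 monocyte and 1 of 11 tested macrophage markers were lower in Tβ-MCA than in PBS, against 3.18% of all tested genes. Without replicate 5, 8, 9 and 7 were lower, against 9.44% of genes, and 1 macrophage marker was higher. Of 6 B cell markers, 1 was lower over all samples and 1 without replicate 5. Without Tβ-MCA replicate 3 or 4 instead, edgeR called 0 of all tested genes. TCA and GCA samples had monocyte sums of 1805 to 3250 CPM. B cell markers summed to 37.8 to 58.3 CPM, dendritic cell markers to 15.5 to 39.4 CPM and erythroid markers to 0.749 to 1.73 CPM over all samples. Ccr2, a chemokine receptor that defines classical monocytes, was at 51.2, 37.3 and 37.9 CPM in PBS and at 2.03, 2.70 and 29.2 CPM in Tβ-MCA. Csf1r of the monocyte list differed far less, at 215, 262 and 271 CPM in PBS and at 146, 178 and 235 CPM in Tβ-MCA. Timd4, a marker of resident macrophages, was at 0 in 7 of the 12 samples. In bulk RNA, fewer cells of a type and less RNA per cell cannot be told apart, and the part of these markers in the results for complement genes was not tested.

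C1qa encodes the A chain of C1q. Its PBS samples were at 1.15, 1.59 and 2.51 CPM, and its Tβ-MCA samples 3, 4 and 5 at 0.209, 0.675 and 1.71 CPM. Replicates 3 and 4 lay below every PBS sample, and replicate 5 lay among them. These levels rest on few reads, with 7, 25 and 64 counts in Tβ-MCA against 40, 54 and 93 in PBS. The fitted log2 difference was -0.997 over all samples. Leaving out 1 sample gave -0.55 without Tβ-MCA replicate 3, -0.64 without PBS replicate 6 and -1.96 without Tβ-MCA replicate 5.

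Over all samples the fitted difference was smaller for the B and C chains, but C1qa was a gene cited in the choice. Without Tβ-MCA replicate 3 the order of C1qa (-0.55) and C1qb (-0.66) turned, so the chains cannot be ranked. C1qb was at 1.92, 2.85 and 4.21 CPM in PBS and at 2.12, 1.46 and 2.33 CPM in Tβ-MCA, and the groups overlapped. C1qc was at 1.38, 2.62 and 2.48 CPM in PBS and at 1.73, 0.891 and 2.46 CPM in Tβ-MCA, again with overlap. The log2 difference was -0.61 for C1qb, from -0.84 to -0.28 (without PBS replicate 6) over the fits that left out 1 sample, and -0.18 when replicate numbers entered as a block. For C1qc it was -0.35, from -0.73 (without Tβ-MCA replicate 5) to -0.037 (without Tβ-MCA replicate 4), and -0.19 without PBS replicate 5. The order of the Tβ-MCA samples was not that of C1qa, since replicate 4 and not replicate 3 was lowest for the B and C chains.

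C1q protein is assembled from equal numbers of its 3 chains, so the balance of their RNA was examined within each sample. C1qa made up 5.15% of all C1q counts in Tβ-MCA replicate 3 (7 of 136, 95% Wilson interval 2.52 to 10.2%), and 17.7 to 28.7% in the other 11 samples. Such intervals cover counting error only. Per length, C1qb was 9.70 times C1qa in that sample and 1.30 to 2.40 times elsewhere. The ratio of C1qc to C1qb per length was 0.33 to 0.60 over all 12 samples. The low share is that of 1 library with few C1qa counts, and Tβ-MCA replicates 4 and 5, at 22.3 and 26.3%, lay within the range of the other groups. The 3 chains together came to 4.45, 7.06 and 9.20 CPM in PBS and to 4.07, 3.02 and 6.50 CPM in Tβ-MCA.

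**Figure D2:**
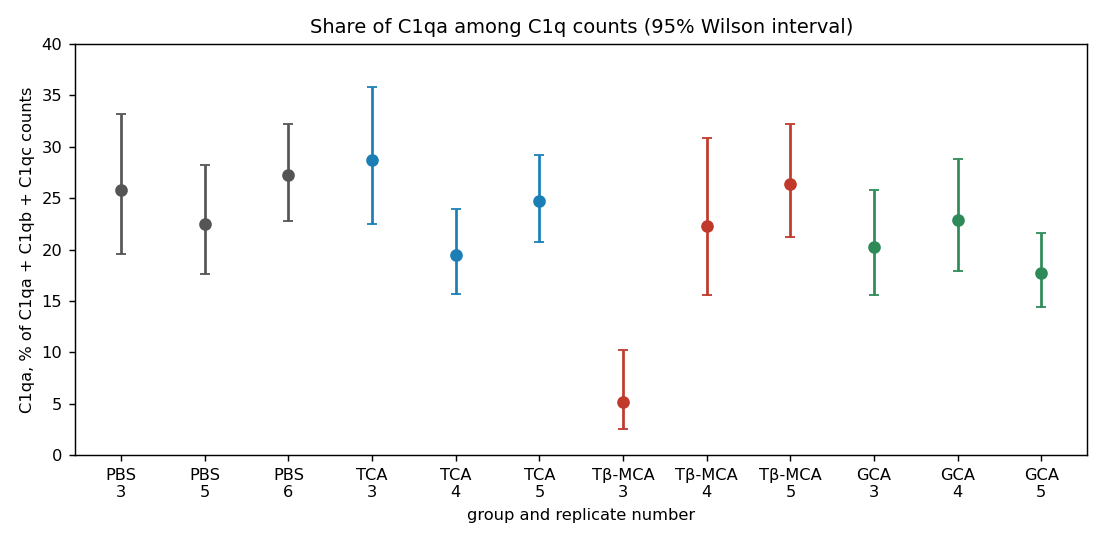
Share of C1qa among the counts of C1qa, C1qb and C1qc (vertical axis, %) in each of the 12 samples (horizontal axis, group and replicate number), with bars for the 95% Wilson interval. Tβ-MCA replicate 3 lies at 5.15% and the other 11 samples between 17.7% and 28.7%.

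With TCA and GCA the C1q chains overlapped PBS. C1qa was at 1.55, 1.69 and 2.65 CPM with TCA and at 1.35, 1.49 and 1.95 CPM with GCA. C1qb reached 2.11, 3.79 and 4.63 CPM with TCA and 3.15, 2.69 and 4.88 CPM with GCA. C1qc was at 1.74, 3.19 and 3.47 CPM with TCA and at 2.17, 2.32 and 4.15 CPM with GCA. No chain stood apart from PBS in either group. The intervals were wide: for C1qa the log2 difference from PBS was 0.17 (95% interval -0.89 to 1.22) with TCA and -0.13 (-1.20 to 0.93) with GCA.

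C3ar1, encoding the receptor for the C3a peptide, had the largest fitted difference of the 9 genes in Tβ-MCA over all samples. It was also a gene cited in the choice, so this rank is partly built in. PBS samples held 8.15, 13.2 and 14.3 CPM, and Tβ-MCA replicates 3, 4 and 5 held 1.20, 1.13 and 10.9 CPM. Replicates 3 and 4 lay far below PBS, at 40 and 42 counts, while replicate 5, at 409 counts, lay inside the PBS range. The log2 difference was -1.41 over all samples and -3.35, or 10.2-fold lower, without replicate 5. It was -0.98 without replicate 3 and -0.95 without replicate 4, where Cd55 was level with it at -0.96. The same replicate had the higher monocyte sum given above. C3ar1 lies at chr6:122847138-122856161 (GRCm38) on the minus strand.

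With TCA, C3ar1 was at 10.4, 18.6 and 17.4 CPM, and with GCA at 9.49, 8.19 and 14.6 CPM. Both groups overlapped PBS. The log2 difference was 0.38 with TCA (95% interval -1.27 to 2.04) and -0.14 with GCA (-1.81 to 1.53), intervals that span more than a 2-fold change in each direction.

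C3, which both pathways cut, was measured far above any depth limit, with 42430 to 85050 counts per sample. It was at 2440, 1798 and 1710 CPM in PBS and at 1269, 1148 and 1602 CPM in Tβ-MCA. All 3 Tβ-MCA samples lay below all PBS samples, and replicate 5 was again the nearest to PBS. The log2 difference was -0.57, from -0.71 without Tβ-MCA replicate 5 to -0.39 without PBS replicate 3. TCA gave 1832, 1649 and 1609 CPM and GCA 2012, 1532 and 1780 CPM, both overlapping PBS. The log2 differences from PBS were -0.22 with TCA (95% interval -0.56 to 0.11) and -0.16 with GCA (-0.49 to 0.18). Within PBS, TCA and GCA, replicate 3 was the highest sample for C3, and so it was for Cd55. C3 lies at chr17:57203970-57228136 (GRCm38) on the minus strand and overlaps the microRNA gene Mir6978 on that strand.

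**Figure D3:**
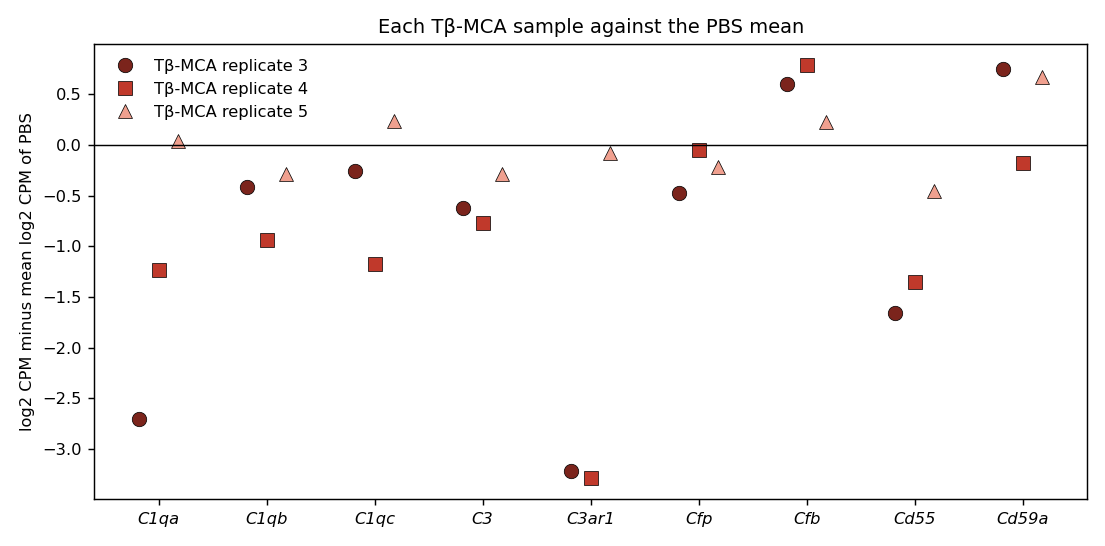
Difference of each Tβ-MCA sample from the PBS mean, in log2 CPM with a prior count of 2 (vertical axis), for the 9 genes, with a marker shape for each replicate. Replicates 3 and 4 lie far below 0 for C1qa, C3ar1 and Cd55. Replicate 5 lies nearest to 0 for every gene but Cfp and Cd59a, where replicate 4 does.

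Cfb, encoding factor B, the protease of the alternative pathway, was the member that stood apart from PBS in both a higher and a lower group. It was at 24.4, 20.9 and 23.4 CPM in PBS and at 34.7, 39.6 and 26.7 CPM in Tβ-MCA. No Tβ-MCA sample overlapped PBS, and the log2 difference was 0.56, from 0.42 without replicate 4 to 0.70 without replicate 5. With TCA it was at 5.92, 13.1 and 14.7 CPM, each below the PBS samples. The log2 difference from PBS was -1.02 (SE 0.39, 95% interval -1.91 to -0.12), 2.02-fold lower, with an adjusted p of 1 in edgeR's quasi-likelihood test after Benjamini-Hochberg adjustment over all tested genes. Its unadjusted p in that edgeR test was 0.0300. Under the alternatives its adjusted p was 0.749 to 1, except without the filter on low counts, where edgeR gave 1.54e-15. TCA replicate 3, at 191 counts, was lower than the other TCA samples, at 543 counts each, and without it the log2 difference was -0.72.

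GCA samples of Cfb spread on both sides of PBS, at 12.2, 30.5 and 16.3 CPM. The log2 difference from PBS was -0.22 (95% interval -1.09 to 0.65). Between the cholic acid conjugates, Cfb was 0.80 higher in log2 with GCA than with TCA (SE 0.39, 95% interval -0.10 to 1.69), with edgeR's adjusted p at 1, and the samples of GCA and TCA overlapped. Cfb lies at chr17:34856374-34862518 (GRCm38) on the minus strand and shares it with the overlapping genes Gm20547 and Mir6972, so its counts depend on how reads in the overlap were assigned.

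Cfp, encoding properdin, lies at chrX:20925454-20931555 (GRCm38) on the minus strand. Its samples were at 23.6, 26.6 and 27.9 CPM in PBS, 21.0, 25.8 and 28.1 with TCA, 18.7, 25.2 and 22.3 with Tβ-MCA and 23.7, 23.2 and 27.1 with GCA. All groups overlapped. The log2 difference from PBS was -0.24 with Tβ-MCA, -0.06 with TCA (95% interval -0.32 to 0.20) and -0.08 with GCA (-0.34 to 0.18), the narrowest intervals of the 9 genes.

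Cd55, encoding decay-accelerating factor, which takes apart the C3-cutting enzymes on host cells, was at 42.1, 33.7 and 26.8 CPM in PBS and at 10.6, 13.2 and 24.5 CPM in Tβ-MCA. All Tβ-MCA samples lay below PBS, replicate 5 only just so. The log2 difference was -1.08, from -1.52 without replicate 5 to -0.86 without replicate 3. With TCA the samples were at 32.0, 26.3 and 26.7 CPM and with GCA at 31.6, 20.7 and 25.4 CPM, overlapping PBS. The log2 differences were -0.27 (95% interval -0.94 to 0.40) and -0.40 (-1.07 to 0.27). Cd55 has a close paralog, Cd55b, at 0.058 CPM or less on average in every group, and whether reads of the pair were split was not tested. Cd55 lies at chr1:130439027-130462744 (GRCm38) on the minus strand, the gene Gm16083 overlaps it on the other strand, and the strand setting of the counting was not given.

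Cd59a, which blocks the terminal pore, rested on 14 to 38 counts per sample and lies at chr2:104095801-104115354 (GRCm38) on the plus strand. It was at 0.746, 0.530 and 0.593 CPM in PBS, 0.806, 0.387 and 0.596 with TCA, 1.08, 0.540 and 1.02 with Tβ-MCA and 0.479, 0.745 and 0.363 with GCA. All groups overlapped. The log2 difference was 0.49 with Tβ-MCA, -0.08 with TCA (95% interval -0.90 to 0.75) and -0.24 with GCA (-1.08 to 0.59). Its paralog Cd59b was at 0.104 CPM or less on average in every group, and reads of the pair may be split.

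Across the 9 genes, 3 had Tβ-MCA samples that did not overlap PBS, Cfb higher and C3 and Cd55 lower. This count is printed beside the 27% of all tested genes that did not overlap and nothing is read from it. C1qa and C3ar1, the genes cited in the choice, overlapped PBS because of replicate 5. Against PBS, 0 of the 9 genes passed an adjusted p of 0.05 with TCA in edgeR, as did 0% of all tested genes, and 1 (Cfb) had an unadjusted p under 0.05, against 3.26% of all genes. DESeq2, which gave no p for C3ar1, and limma, whose filter left out Cd59a, each called 0 of the other 8 members with TCA and had 1 at an unadjusted p under 0.05. Over all genes with TCA, DESeq2 called 1 and had 513 of 16761 unadjusted, and limma called 0 and had 494 of 13951. The samples did not overlap PBS for 1 member with TCA, against 9.67% of genes.

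With GCA, edgeR called 0 of 9 members (0% of all genes), DESeq2 and limma called 0 of the 8 that each tested, and 0 members were under an unadjusted p of 0.05 with any of these tools (3.53% of genes in edgeR). Over all genes with GCA, DESeq2 called 0 and had 548 of 16761 unadjusted, and limma called 0 and had 539 of 13951. The samples of 0 members stood apart from PBS, against 9.55% of genes. The taurine and glycine conjugates were compared directly at 200 μM and 24 h for the 9 genes. EdgeR called 0 members (0% of genes) and had 0 at an unadjusted p under 0.05 (2.46% of genes). Of the 8 members that each tested, DESeq2 had 0 called and 1 unadjusted, and limma 0 and 0. Over all genes in this comparison, DESeq2 called 0 and had 371 of 16761 unadjusted, and limma called 0 and had 369 of 13951. No member separated GCA from TCA, against 8% of genes. After Cfb, the next largest log2 difference of GCA from TCA was that of C3ar1, -0.52 (95% interval -2.18 to 1.13), and the other 7 lay between -0.30 and 0.07. These intervals leave changes of the C1q chains and C3ar1 by 1.5-fold undecided. Tβ-MCA was not tested against the other acids, since its dose is uncertain and its group chose the genes.

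**Figure D4:**
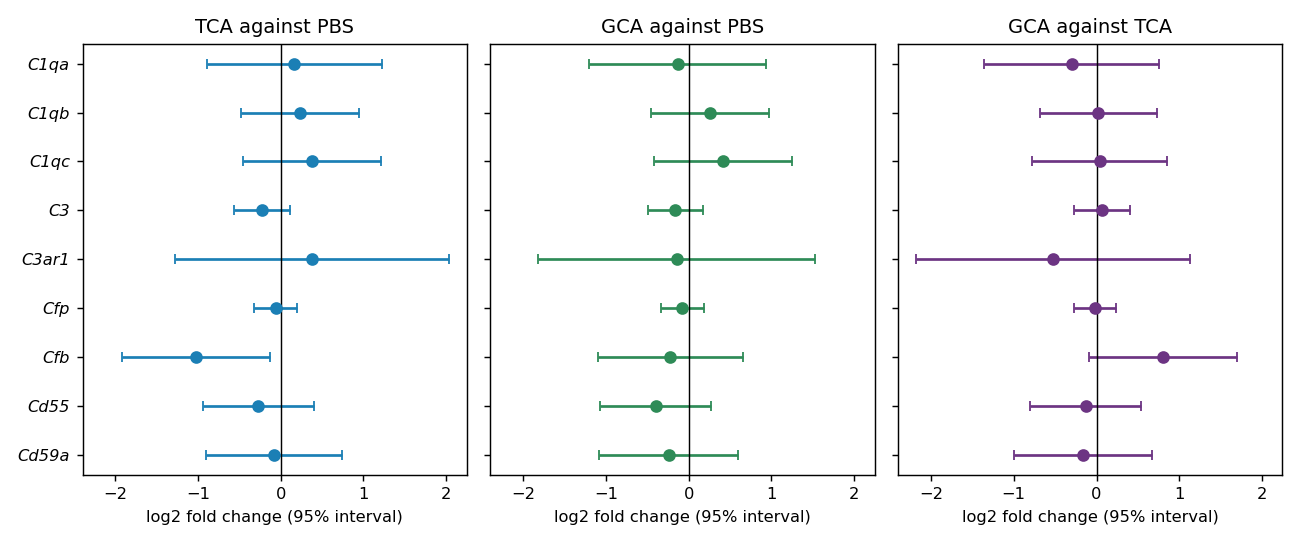
Fitted log2 differences with 95% intervals for the 9 genes, TCA against PBS, GCA against PBS and GCA against TCA. Only the interval of Cfb for TCA against PBS, -1.91 to -0.12, leaves out 0.

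Beyond the 9 genes, 50 other complement genes were listed by role, 39 were in the table and 24 passed the filter on low counts. In Tβ-MCA against PBS, 1 of the 24, Cd93, rose and 0 fell in edgeR at an adjusted p of 0.05, against 4.44% of all tested genes higher and 3.18% lower. At an unadjusted p under 0.05 in edgeR, 4 were higher and 8 lower (12.6 and 12.3% of all genes). Their median log2 difference was -0.20, and 0.004 over all genes. The Tβ-MCA samples did not overlap PBS for 3 higher and 8 lower of the 24, against 27% of all tested genes in either direction. Without Tβ-MCA replicate 5, 2 of the 24 were called higher and 6 lower (8.52 and 9.44% of genes), with a median of -0.29. The higher genes were then Cd93 and Masp2, a lectin pathway protease, and the lower ones Lrp1 (log2 difference -2.05), C1ra (a C1r protease, -1.54), C1rl (-0.99), Fcnb (-0.87), Calr (-0.75) and C5ar1 (-0.39). C1ra and Masp2 were named after their values were seen. Without Tβ-MCA replicate 3 or 4 instead, edgeR called 0 of the 24 and 0 of all tested genes.

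Cd93, a surface protein once described as a C1q receptor, was at 217, 259 and 266 CPM in PBS and at 328, 308 and 288 CPM in Tβ-MCA. No Tβ-MCA sample overlapped PBS, and the log2 difference was 0.31 (SE 0.08, adjusted p = 0.0331 in edgeR). The call was lost without any 1 PBS sample and without Tβ-MCA replicate 3 or 4, with adjusted p from 0.00947 to 0.147 over the fits that left out 1 sample. Cd93 is encoded at chr2:148436640-148443563 (GRCm38) on the minus strand.

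The other receptors went from the highly expressed integrin chains to lower levels. Itgam and Itgb2, the chains of complement receptor 3, were at log2 differences of -0.11 and -0.10 (edgeR's adjusted p = 0.44 and 0.352). Itgam overlapped PBS. Itgb2 did not, at 1603, 1516 and 1512 CPM in PBS and at 1417, 1413 and 1488 CPM in Tβ-MCA. C5ar1, the receptor for C5a, was at 60.5, 63.0 and 64.6 CPM in PBS and at 44.7, 50.8 and 57.9 CPM in Tβ-MCA, a log2 difference of -0.29 (edgeR's adjusted p = 0.0603). All Tβ-MCA samples were below PBS, as were those of Lrp1, a scavenger receptor, at 265, 280 and 287 CPM in PBS and 54.2, 79.4 and 237 CPM in Tβ-MCA (log2 difference -1.17, edgeR's adjusted p = 0.174). Of all tested genes, 27% did not overlap PBS in either direction. The second C5a receptor C5ar2 had a log2 difference of 0.03 and overlapped PBS.

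Among the recognition and protease genes, Fcnb, a ficolin of the lectin pathway, was at 205, 215 and 232 CPM in PBS and at 108, 131 and 185 CPM in Tβ-MCA. C1rl, a C1r-like protease, was at 34.4, 29.8 and 31.2 CPM in PBS and at 13.7, 18.3 and 29.6 CPM in Tβ-MCA. Calr, a chaperone that binds C1q, was at 1017, 1132 and 1124 CPM in PBS and at 582, 719 and 1007 CPM in Tβ-MCA. Each of the 3 had its samples apart from PBS, as did 27% of all tested genes. Replicate 5 was nearest for each of the 3, and edgeR's adjusted p was 0.0649, 0.105 and 0.0892. With TCA and with GCA, edgeR called 0 of the 24 genes, as it called 0% of all tested genes. With TCA 1 (C5ar2, higher) and with GCA 0 had an unadjusted p under 0.05 in edgeR, against 3.26 and 3.53% of all genes.

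**Figure D5:**
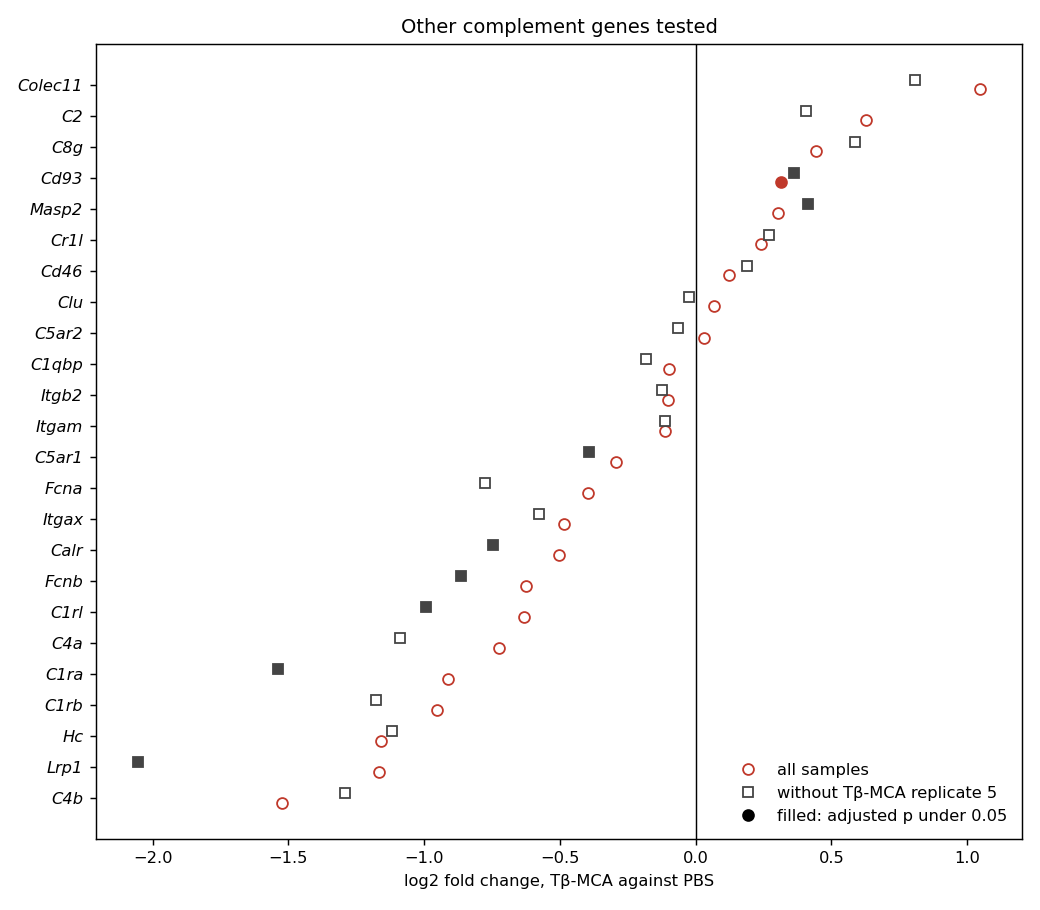
Fitted log2 difference of Tβ-MCA from PBS (horizontal axis) for the 24 other complement genes tested (vertical axis), from all samples (circles) and without Tβ-MCA replicate 5 (squares), filled where edgeR's adjusted p was under 0.05. Cd93 is the 1 filled circle, at 0.31, and Lrp1 is the lowest square, at -2.05.

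The genes whose log2 CPM was most like that of C3ar1 over the 12 samples were Msr1 (Pearson r 0.991), Aif1 (0.991), Ccl9 (0.988), Lpl (0.985) and Galnt9 (0.984). For C1qa they were Igkv10-96 (0.976), Ccl6 (0.972), Mgam (0.971), Dnah12 (0.970) and Ctsh (0.968). These are descriptions over samples that share groups and replicate numbers, and Igkv10-96 and Galnt9 had as few as 2 counts in a sample. Among the members, C3 and Cd55 had r 0.926, C1qb and C1qc 0.918, and C1qa and C3ar1 0.903. The choice of genes cited lower counts of both C1qa and C3ar1 in Tβ-MCA, so their r is partly built in and nothing is read from it. C1qa had r 0.65 to C1qb and 0.608 to C1qc.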

How the data were processed

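RNA of 12 cultures was analysed. Per the submitters' processing notes, which name Trimmomatic 0.36, STAR 2.5.3a, featureCounts of Subread 1.5.1 and GRCm38/mm10, the authors aligned reads and deposited counts per gene, as whole numbers, and RPKM values. Whether the counting used strand is not given in the sources used here. The deposited RPKM equal the counts scaled by gene length and column total. Libraries held 32757389 to 41375925 counts.

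The counts were fitted in edgeR 4.0.16 (R 4.3.3) by the robust quasi-likelihood test with TMM scaling, over all 12 samples, on genes kept by filterByExpr, and p-values were adjusted by Benjamini-Hochberg over 16761 genes at a threshold of 0.05. CPM are TMM-scaled. Alternatives were DESeq2 1.42.0, limma 3.58.1 on log2-transformed RPKM (pseudocount 1, genes averaging 0.5 RPKM or more), other scalings and filters, a replicate block, only the 2 groups compared, and leaving out each sample. The scripts were tested on simulated data. Replicates were compared and none were alike within sampling noise. Members, marker lists and other complement genes were chosen with earlier results of these data known. By the rule for named genes, all members were given, with the other complement genes that passed the test, the 8 of highest mean RPKM and the 5 genes most like C1qa and C3ar1. A complement gene first listed is not reported here, and the list counts leave it out. The authors' columns for GCA carry the name GA.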

Additional observations from a re-analysis of the deposited data

How the results depend on the processing

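No member was called in a tested comparison under RLE or total library scaling, and no member's direction turned with scaling. Over all genes, Tβ-MCA against PBS called 1278 genes (745 higher and 533 lower), 1013 higher and 395 lower with total library sizes, 2079 with DESeq2, 2406 without a filter, 0 with only the 2 groups compared, and 0 to 3076 when 1 sample was left out, the highest without Tβ-MCA replicate 5 and 168 without PBS replicate 6. TCA called 0, and 3 with the replicate block, 1 with DESeq2 and 37 without a filter. GCA called 36 and GCA against TCA 42 without a filter. Other complement genes called higher with Tβ-MCA (1) were 2 without a filter, 0 with only the 2 groups compared and 0 to 2 leaving out 1 sample. Those called lower (0) were 6 without a filter, 2 with the replicate block, 5 in DESeq2, 2 at the study's thresholds (unadjusted p under 0.05 and 2-fold) and 0 to 6 leaving out 1 sample. Members called lower with TCA (0) were 1, Cfb, without a filter (adjusted p 1.54e-15 in edgeR) and at the study's thresholds, and 1 (Cfb) was called higher with GCA against TCA without a filter (7.08e-09). Without a filter the fit gave the median gene the trended spread, and Cfb had an SE of 0.113 against 0.394. Whether every gene took that spread was not checked, and other causes were not tested. With the replicate block the GCA difference from PBS turned to 0.30 for C1qa and 0.15 for C3ar1. Same-numbered samples of GCA and TCA correlated at r 0.0668 to 0.308 over 3 pairs. Those of PBS had r 0.133 and 0.326 with TCA, 0.129 and 0.323 with GCA, and 0.0597 and 0.24 with Tβ-MCA. Groups share only 2 numbers with PBS and no source states a pairing, so the numbers were not taken to pair samples in the comparisons made. The same-numbered pairs of Tβ-MCA and GCA, which were not compared, had r 0.197 to 0.239. For 10 of 12 samples the best match had their own number, and PBS replicate 6 had no such sample to match. Mean r was 0.189 over the 15 same-numbered pairs and -0.0716 over the others. This is a hint of a shared replicate effect from the data and not the design. With the block, members at an unadjusted p under 0.05 in edgeR went from 1 to 3 with TCA and from 0 to 2 with GCA. C1qb and C1qc were among them, and the members' lowest adjusted p in edgeR was 0.711 and 0.902. Of all 16761 tested genes, those under that unadjusted p also rose, from 546 to 1080 with TCA and from 591 to 917 with GCA.

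Leaving out 1 sample turned the sign of these log2 differences. For TCA against PBS they ran from -0.11 to 0.52 for C1qa, -0.012 to 0.56 for C1qb, -0.15 to 0.050 for Cfp and -0.35 to 0.16 for Cd59a. For GCA against PBS they ran from -0.36 to 0.22 for C1qa, -0.037 to 0.59 for C1qb, -0.26 to 0.018 for C3, -0.43 to 0.020 for C3ar1 and -0.68 to 0.032 for Cfb. For GCA against TCA they ran from -0.27 to 0.27 for C1qb, -0.32 to 0.22 for C1qc, -0.034 to 0.16 for C3, -0.13 to 0.074 for Cfp, -0.29 to 0.0086 for Cd55 and -0.49 to 0.11 for Cd59a. Depth limits C1qa and Cd59a, which had under 100 counts in every sample.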
